A study of Mus musculus with 6 samples.

Results

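Daam2 and 9 further genes of the formin family (Daam1, Fmn1, Fmn2, Fmnl1, Fmnl2, Fmnl3, Fhod1, Fhod3 and Inf2) were followed through 6 mRNA libraries of NSC-34 cells, as 10 of the 23038 genes in the deposited tables. They were taken by gene symbol. The family was chosen by a measured value, the lower level of Daam2 in these libraries, so the Daam2 difference below is a description and carries no test. NSC-34 is a mouse line with motor neuron features, a fusion of neuroblastoma and embryonic spinal cord cells. In 3 libraries the cells had received control siRNA (siNC), and in the other 3 siRNA directed at Qk (siQk), the gene of the Quaking family of RNA-binding proteins. All 6 libraries came from the same line, grown in serum-containing medium, with no other treatment named. The labels call the libraries biological replicates and speak of 3 different siRNAs against Qk, but do not tie a siRNA to a library. The p-values below therefore measure the spread between these libraries.

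Formins are large proteins that start new actin filaments and ride on the growing, barbed end through their formin homology 2 domain, fed with profilin-bound actin by the neighbouring proline-rich region. Most are folded shut until a small GTPase binds them. In neurons, formins act in neurite outgrowth, growth cone filopodia, axonal actin and dendritic spines. The Daam proteins, named as Dishevelled-associated activators of morphogenesis, link Wnt planar polarity signalling to actin, and Daam2 is also known in the oligodendrocyte lineage. Quaking proteins bind RNA at the letters ACTAAC or, as a frequent variant, ACTAAT (with U for T in the RNA).

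Those letters were searched on the sense strand of 1 coding transcript a gene (GENCODE M21, genome build GRCm38), because Qk was the targeted gene. Daam2 (Entrez 76441) lies on the minus strand at chr17:49456022-49564343, and the coding transcript searched has 26 exons. Daam1 (Entrez 208846), its closest relative in the family, lies on the plus strand at chr12:71831078-71992333 and its searched transcript also has 26 exons. The searched Daam2 transcript held 1 match, in the 3′ UTR within exon 26 at chr17:49458506-49458511. The Daam1 transcript held 2, both ACTAAT, 1 in coding exon 6 at chr12:71944174-71944179 and 1 in the 3′ UTR within exon 26 at chr12:71991477-71991482. The transcripts searched span 3646 bases for Daam2 and 5879 for Daam1, less than the exon lengths the deposited counts refer to (6493 and 6803 bases), so part of the counted sequence was not searched. Each match is shown 5′ to 3′ with 12 bases on either side and the match in capitals.
Daam2, 3′ UTR: tggagactggggACTAACcacagaccagca
Daam1, coding: ctgtataaaggcACTAATgaacaactctca
Daam1, 3′ UTR: tactatttaaaaACTAATctgtatgaacta
At least 1 match stood in 42.7% of the 12050 tested genes whose transcript could be searched. Fmnl2 (5′ UTR) and Fmnl3 (3′ UTR) each held 1, Fhod3 held 1 in its coding part, and none was found in the chosen transcripts of Fmn1, Fmn2, Fmnl1, Fhod1 and Inf2.

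The intron between exons 15 and 16 of Daam2, whose splicing the study examined, could be read from an annotated retained-intron transcript, Daam2-203. It spans 2195 bases on the minus strand at chr17:49474253-49476447 and held 1 ACTAAC and 1 ACTAAT, which began 62 bases apart, the second ending 140 bases before exon 16. The stretch that holds both, chr17:49474353-49474500 on the minus strand, is printed 5′ to 3′ with 40 bases on either side of the pair and the matches in capitals.
Daam2, intron 15 to 16: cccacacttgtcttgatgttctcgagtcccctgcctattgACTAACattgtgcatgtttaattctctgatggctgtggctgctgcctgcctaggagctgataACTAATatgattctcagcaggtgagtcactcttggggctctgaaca
Of 280 introns at least as long that could be read in the same way, 52.5% held at least 1 match in their first 2195 bases and 18.6% held at least 2. The next intron of Daam2, between exons 16 and 17 (716 bases), held none, and neither did the 2 readable introns of Daam1 (103 and 726 bases). In Grid2ip, another formin, the intron between exons 5 and 6 (782 bases) held 1 ACTAAC. The other readable introns of Grid2ip and those of Fhod1 held none. Letter matches describe the sequence only. The study found an unannotated exon with an early stop codon in this intron in siQk cells. By quantitative PCR it reported that cycloheximide, which can inhibit the decay of such RNA, restored the lowered level. The deposited tables count whole genes, and the splicing of this intron was not analysed here.

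Library totals lay between 43000503 and 53565950 expected counts. Qk, the targeted gene, was at 9.67, 8.18 and 14.9 RPKM (a level per length of exon and per size of library) in siNC libraries 1 to 3 and at 1.39, 1.71 and 1.1 RPKM in siQk libraries 1 to 3, which fits the labels. Over the 12665 genes tested, siQk library 2 (mean Pearson r 0.964) and siNC library 3 (0.971) resembled the other libraries least, and the Daam2 value is also given without both. A change of level in bulk RNA cannot separate fewer expressing cells from less RNA per cell.

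Daam2 was lower in siQk. It stood at 6.5, 4.42 and 6.03 RPKM in siNC libraries 1 to 3 and at 1.94, 1.79 and 2.67 RPKM in siQk libraries 1 to 3. Every siQk library was below every siNC library, the nearest pair being siQk library 3 and siNC library 2. Mean levels were 5.65 ± 1.09 RPKM (siNC) and 2.14 ± 0.468 RPKM (siQk; both SD, n = 3), so siQk had 37.8% of the control level. The log2 fold change was -1.44 (SE 0.26), the 8th lowest of the 12665 genes tested. This is the value the family was chosen on, and no test is given. It lay between -1.64 and -1.33 with any 1 library left out and was -1.24 without siNC library 3 and siQk library 2. At the lowest library Daam2 had 575 counts, a counting error of 4.17%, which is smaller than the spread between libraries (coefficient of variation 19.3% in siNC and 21.9% in siQk). Within siQk, library 3 had the least Qk and the most Daam2.

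**Figure D1:**
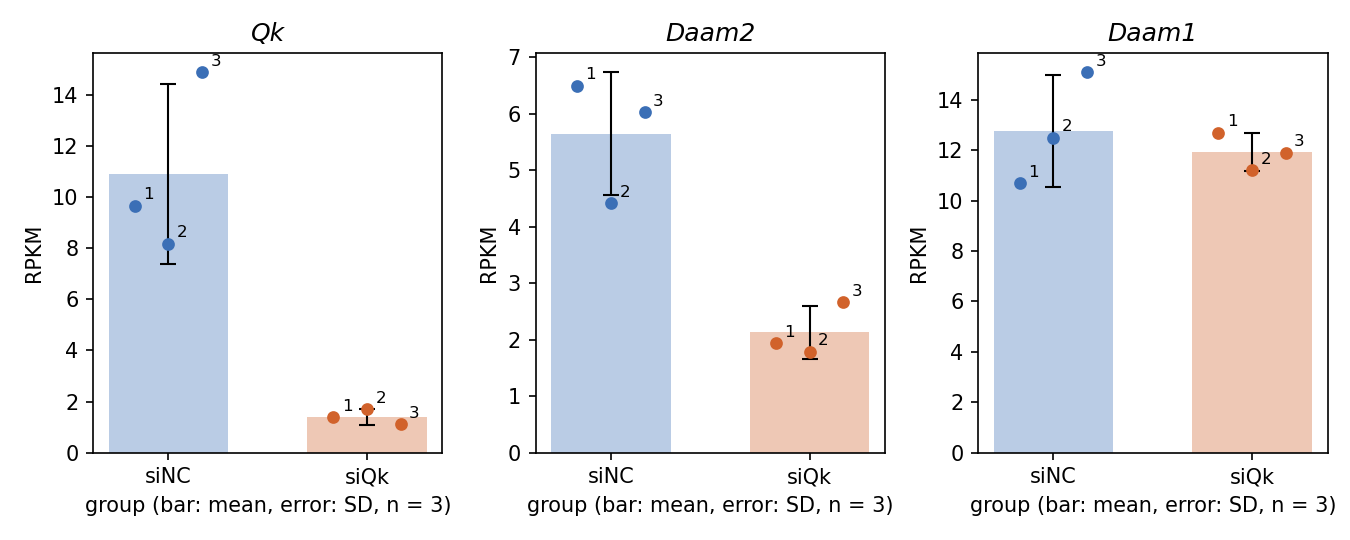
RPKM of Qk, Daam2 and Daam1 (y axes, from 0) in siNC and siQk (x axes), where bars are group means, error bars the SD (n = 3) and numbered points the libraries. Daam2 averaged 5.65 RPKM in siNC and 2.14 RPKM in siQk with no overlap between groups, while the Daam1 points of siNC (10.7 to 15.1) enclose those of siQk (11.2 to 12.7).

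Daam1, the second Dishevelled-associated formin, did not pass the test. Its level was 10.7, 12.5 and 15.1 RPKM in siNC libraries 1 to 3 and 12.7, 11.2 and 11.9 RPKM in siQk libraries 1 to 3. The siNC values lay on both sides of all siQk values. On the log2 scale siQk differed from siNC by -0.14 (SE 0.18). The adjusted p over all genes tested was 1 (unadjusted p 0.461; edgeR quasi-likelihood test with Benjamini-Hochberg adjustment). Without siNC library 3 the log2 difference was 0.04. Daam2 therefore made up less of the Daam total in siQk. Of the summed Daam1 and Daam2 RPKM, Daam2 was 37.7%, 26% and 28.6% in siNC libraries 1 to 3 and 13.3%, 13.8% and 18.4% in siQk libraries 1 to 3. Together both genes averaged 18.4 ± 2.31 RPKM under control siRNA and 14 ± 0.896 RPKM in siQk (SD, n = 3). Both quantities contain the Daam2 value and are descriptions.

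Of the 9 formins other than Daam2, 6 had enough counts to be tested (mean log2 CPM above 0, where CPM is the count scaled to a common library size), and none passed in either direction (p under 0.01 and adjusted p under 0.1). Over all genes the same rule called 1 of 12665, or 0.0079%, which was Qk. As Daam2 was not called either, this result does not set the other formins apart from Daam2. The study, also with edgeR and these cutoffs, listed Daam2 among its down-regulated transcripts. None of the 6 had an unadjusted p under 0.05, a level reached by 374 genes (2.95%). DESeq2, which called 19 of 12665 genes (0.15%), and the edgeR exact test, which called 5 (0.0395%), also called 0 of the 6. The adjusted p was 1 for each, and the unadjusted p ran from 0.139 to 0.699. In none of the 6 did the groups fail to overlap, against 1119 of all genes tested (8.84%). With 20 ways to split the libraries, an exact permutation test (two-sided) cannot go below p = 0.1, and it gave 0.5 to 0.8 for these genes.

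**Figure D2:**
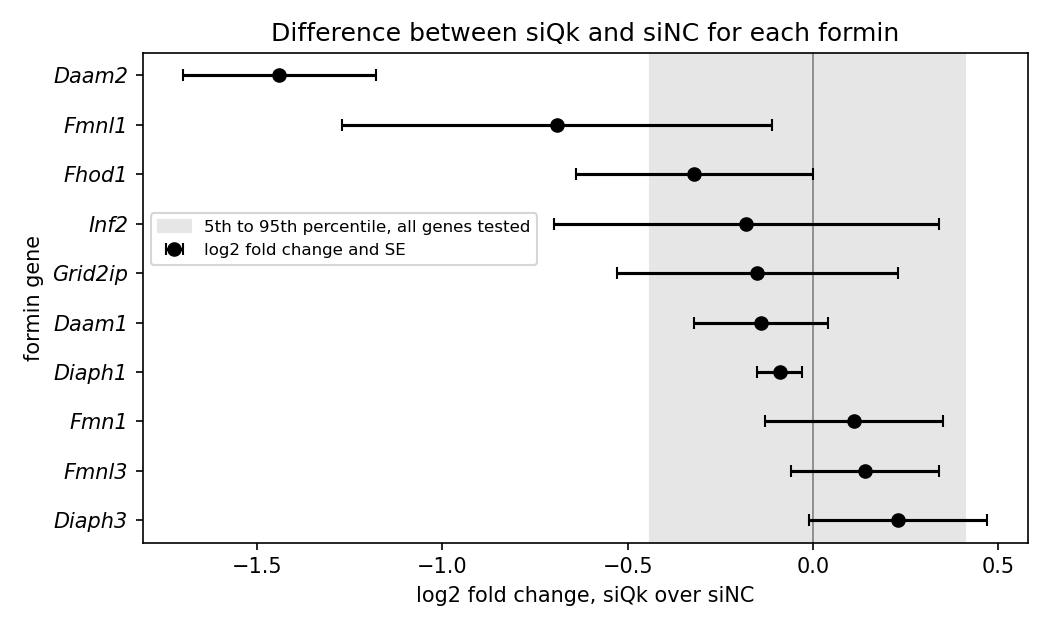
Log2 fold change of siQk over siNC (x axis) with its SE for each formin tested (y axis), over a grey band from the 5th to the 95th percentile of all genes tested (-0.44 to 0.41). Daam2 and Fmnl1 lie below the band, and the SE of Fmnl1 (0.58) is more than double that of Daam2 (0.26).

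The formin-like proteins Fmnl1, Fmnl2 and Fmnl3 act downstream of Rac and Cdc42 in lamellipodia and filopodia. Fmnl1, best known from blood cells, was at 2.07, 1.21 and 0.934 RPKM in siNC libraries 1 to 3 and at 1.25, 0.41 and 1.01 RPKM in siQk libraries 1 to 3. Its groups overlapped, and its log2 fold change of -0.69 (SE 0.58, unadjusted p 0.139, adjusted p 1, edgeR) lay between -1.0 and -0.30 with single libraries left out. Fmnl1 had the widest range of the formins tested, its highest library being 5.06 times its lowest. Fmnl3, the strongest of the subfamily, had 15.7, 14.3 and 12.1 RPKM in siNC libraries 1 to 3 against 13, 19.7 and 14.5 RPKM in siQk libraries 1 to 3. Its highest value was in siQk library 2, without which its log2 fold change turned from 0.14 (SE 0.20) to -0.05. Fmnl2 had 1 to 9 counts a library and was not tested.

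Fhod1 and Fhod3 are formins of stress fibres and, for Fhod3, of heart muscle sarcomeres. Fhod1 was at 12.9, 8.26 and 7.12 RPKM in siNC libraries 1 to 3 and at 8.17, 5.73 and 9.16 RPKM in siQk libraries 1 to 3. Only siNC library 1 stood above all siQk libraries. The log2 fold change was -0.32 (SE 0.32, unadjusted p 0.238, adjusted p 1, edgeR), and -0.03 without siNC library 1. Of the annotated Fhod1 exon bases, 2.49% are shared with Tmem208 on the opposite strand, whose reads this unstranded library cannot tell apart. Fhod3 had at most 3 counts in any library, and a count of 0, as in siNC libraries 2 and 3, allows up to 0.0117 RPKM (3 counts, counting error only).

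Inf2, the inverted formin that also severs filaments and whose human gene is mutated in a form of Charcot-Marie-Tooth neuropathy, varied more among the controls than any other formin tested. Its level was 23.2, 20.4 and 6.87 RPKM in siNC libraries 1 to 3 and 15.2, 15.1 and 14.6 RPKM in siQk libraries 1 to 3. The controls spread on both sides of the siQk values, with siNC library 3 lowest of all. The coefficient of variation was 51.9% in siNC and 2.17% in siQk, where the medians over all genes tested were 18.2% and 14%. The log2 fold change was -0.18 (SE 0.52, unadjusted p 0.602, adjusted p 1, edgeR). Without siNC library 3 it was -0.54 with an unadjusted p of 0.00639 and an adjusted p of 0.894, and without siNC library 1 it was 0.13.

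Fmn1 and Fmn2, the founding formins, work with the Spire nucleators, Fmn2 chiefly in oocytes and brain. Fmn1 was the weakest formin tested, at 0.265, 0.396 and 0.242 RPKM in siNC libraries 1 to 3 and 0.351, 0.378 and 0.266 RPKM in siQk libraries 1 to 3. Highest and lowest values were both in siNC, and the log2 fold change was 0.11 (SE 0.24, unadjusted p 0.699, adjusted p 1, edgeR). Fmn1 shares 2.92% of its annotated exon bases with antisense genes. Fmn2 was listed at 0 in 5 libraries and had 3 counts in siQk library 3. Its 0 allows up to 0.00971 RPKM. The 3 formins that were not tested (Fmn2, Fmnl2 and Fhod3) were thus at or near 0 in both groups, and a difference between groups was not detectable at this depth.

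The family has further members beside these 10. The diaphanous formins, effectors of RhoA, are listed in the files as Diap1, Diap2 and Diap3 (Diaph1, Diaph2 and Diaph3), and Grid2ip encodes delphilin, known from Purkinje cell synapses. None of the 3 that could be tested was called. Diaph1 (11.4, 11.1 and 11.6 RPKM in siNC, 10.8, 10.9 and 11.1 RPKM in siQk) was the steadiest formin, with a log2 fold change of -0.09 (SE 0.06, unadjusted p 0.587, edgeR). Diaph3 was at 12.8, 19 and 16.2 RPKM in siNC and 16.7, 24.3 and 16.6 RPKM in siQk, a log2 fold change of 0.23 (SE 0.24, unadjusted p 0.304, edgeR). Grid2ip, at 34.1, 39.8 and 18 RPKM in siNC and 35.4, 20.8 and 27.5 RPKM in siQk, had overlapping groups and a log2 fold change of -0.15 (SE 0.38, unadjusted p 0.592, edgeR). A share of 9.52% of its annotated exon bases lies opposite an antisense gene. Diaph2 had 1 count in all 6 libraries together.

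RPKM is per length, so formin levels can be ordered on the scale of the deposited exon lengths. These differ unevenly from the coding transcripts searched: 6493 and 3646 bases for Daam2, 4468 and 3928 for Fhod1, 3703 and 5596 for Diaph1. The order below and the shares of summed RPKM therefore depend on the exon lengths used. In siNC the means ran from Grid2ip (30.6 ± 11.3 RPKM, SD, n = 3) through Inf2 (16.8 ± 8.73), Diaph3 (16 ± 3.12), Fmnl3 (14 ± 1.81), Daam1 (12.8 ± 2.17), Diaph1 (11.4 ± 0.273) and Fhod1 (9.44 ± 3.08) to Daam2 (5.65 ± 1.09), Fmnl1 (1.41 ± 0.594) and Fmn1 (0.301 ± 0.083). Neighbours among the first 7 overlapped and could not be ordered, although Grid2ip (18 to 39.8 RPKM) lay wholly above Fmnl3, Daam1, Diaph1 and Fhod1. Daam2 overlapped neither Fhod1 above it nor Fmnl1 below it, which placed it 8th of the 14 formins on this scale. In siQk Daam2 was again 8th, at 2.14 RPKM, and again overlapped neither neighbour, Fhod1 (7.68 ± 1.76) and Fmnl1 (0.889 ± 0.431). Inf2 stood 2nd in siNC and 4th in siQk, positions that overlapped with those around them in siNC.

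**Figure D3:**
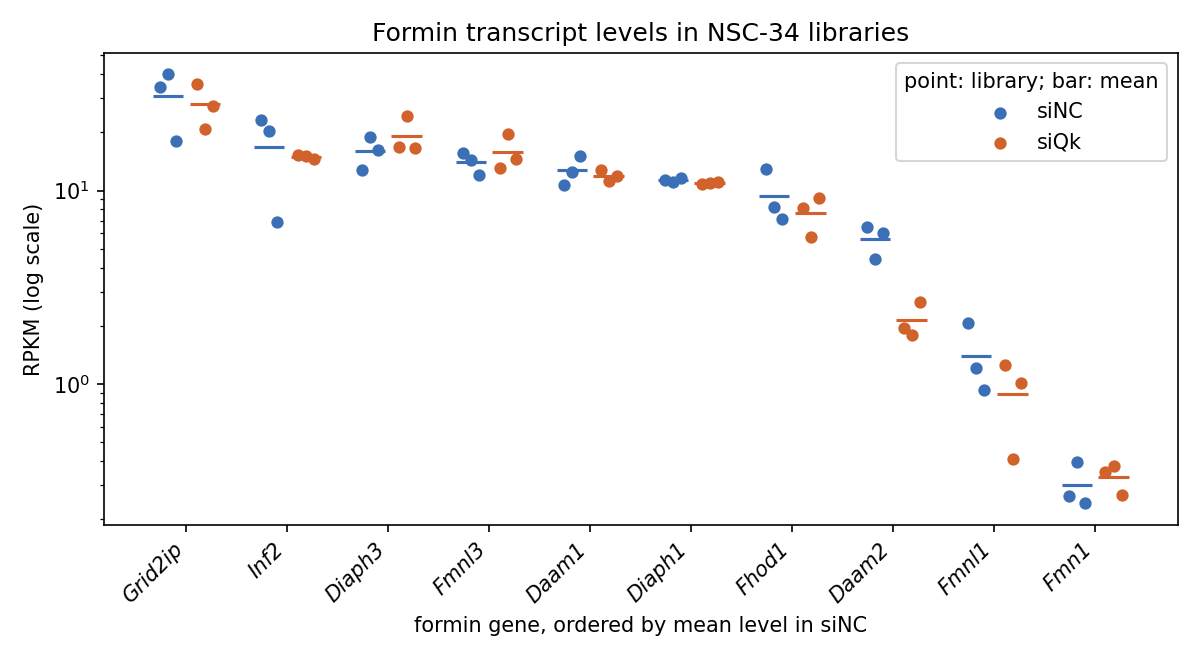
RPKM on a log axis (y) of the 10 formins tested, in order of the mean siNC level (x), where points are libraries and bars group means. Daam2 is the gene whose siNC and siQk points do not overlap, and the 3 siNC points of Inf2 reach from 6.87 to 23.2 RPKM.

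Summed over all 14 formins, RPKM was 130, 131 and 94.2 in siNC libraries 1 to 3 and 116, 110 and 109 in siQk libraries 1 to 3. The siQk sums lay inside the range of the siNC sums, of which library 3 was lowest. Daam2 was 4.93 ± 1.52% of the sum in siNC and 1.92 ± 0.454% in siQk (SD, n = 3), and Daam1 11.3 ± 4.14% and 10.7 ± 0.416%. Of the 10 formins tested, 6 had their lowest siNC value in siNC library 3 and 5 their lowest siQk value in siQk library 2.

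**Figure D4:**
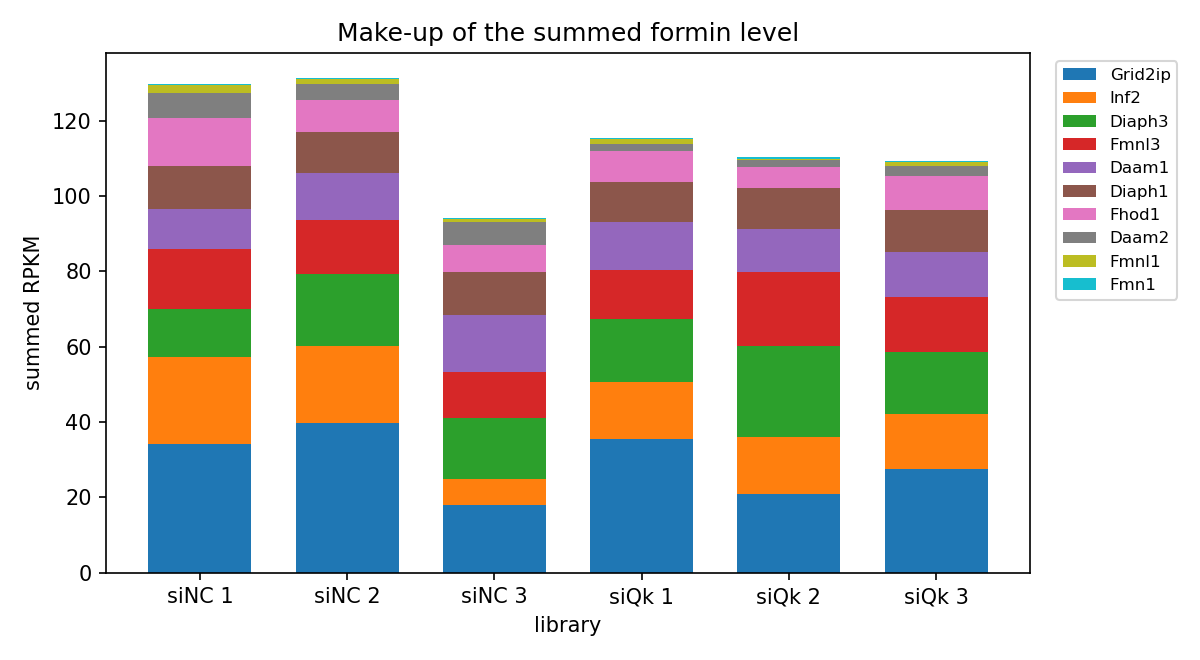
RPKM of the 10 formins tested, stacked (y axis) for each library (x axis), with 1 colour a gene. The siNC library 3 column is the lowest (94.2 over all formins), mainly through Grid2ip and Inf2, and the Daam2 band is thinner in all 3 siQk columns.

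The genes around the formins were read from lists of their activators, partners and targets. No gene of any list was called by edgeR's quasi-likelihood test. Over the lists, the 4 further formins included, 74 genes were tested, of which 2 (2.7%) had an unadjusted p under 0.05 and 3 (4.05%) had groups that did not overlap, beside 2.95% and 8.84% over all genes tested. These 3 genes, the 2 included, came from the planar polarity and cell marker lists described below. Of the 19 genes DESeq2 called over all genes (0.15%), 1 was a list gene, the motor neuron gene Isl1, and of the 5 called by the edgeR exact test (0.0395%) 0 were list genes.

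The median log2 fold change of all genes tested was -0.00392. Rhoa, which activates the diaphanous formins and Daam1, averaged 206 ± 15 RPKM under control siRNA and 212 ± 9.97 in siQk (SD, n = 3). Rac1 was at 181 ± 32.3 and 180 ± 13 RPKM, and Cdc42 at 178 ± 38.7 and 187 ± 20.7 RPKM. Rhob, which acts on endosomes, stood further from 0 (log2 fold change -0.32, SE 0.10, unadjusted p 0.0853, adjusted p 1, edgeR). Rhoc stood at 0.14 (SE 0.29) and Rac3 at -0.15 (SE 0.47).

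Of 14 partners that bind formins or hand them actin, 13 were tested and 0 had an unadjusted p under 0.05 (median log2 fold change 0.04). Profilin, the source of formin-ready actin, was at 296 ± 26.5 RPKM in siNC and 313 ± 17.2 in siQk for Pfn1, and at 58.5 ± 10.4 and 65.6 ± 4.01 RPKM for Pfn2 (SD, n = 3). The Dishevelled genes, whose products bind the Daam proteins, had log2 fold changes of 0.07 (Dvl1, SE 0.29), 0.04 (Dvl2, SE 0.13) and 0.14 (Dvl3, SE 0.19). The smallest p of the list belonged to Fnbp4, a formin-binding protein (-0.26, SE 0.19, unadjusted p 0.202, edgeR), followed by Spire1, the nucleator that pairs with Fmn proteins (-0.16, SE 0.12), and Baiap2, a membrane-bending adaptor (-0.17, SE 0.10).

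Actin is also nucleated without formins. All 10 listed genes for subunits of the Arp2/3 complex, which builds branched networks, were tested. They had 6 negative and 4 positive log2 fold changes between -0.22 (Actr2, SE 0.22) and 0.18 (Actr3b, SE 0.29), with Arpc5 at 0.16 (SE 0.19). Of 9 further nucleators and promoting factors 4 were tested, with Jmy, a nucleator that also activates the Arp2/3 complex, lowest at -0.44 (SE 0.32, unadjusted p 0.105, edgeR), Wasl at -0.11 (SE 0.19) and Whamm at 0.06 (SE 0.25). Neither list held a gene with an unadjusted p under 0.05.

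Serum response factor and its actin-sensing coactivators drive a set of cytoskeletal genes, and formin activity is known to feed into it. Of 19 genes listed, which include Srf and its coactivator genes Mkl1 and Mkl2 beside the targets, 13 were tested, 5 negative and 8 positive (median 0.03), and 0 had an unadjusted p under 0.05. Tpm1, a tropomyosin, stood at -0.32 (SE 0.15, unadjusted p 0.087, edgeR). Actg1, cytoplasmic gamma actin, stood at -0.41 (SE 0.44), with 28.8 ± 1.68 RPKM in siNC and 22.2 ± 9.47 in siQk (SD, n = 3), where siQk library 2 alone was low at 11.4 RPKM. Mkl1, one of the coactivators, stood at 0.24 (SE 0.22).

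Planar polarity Wnt signalling, the pathway the Daam proteins are named for, was covered by 18 genes, of which 15 were tested. Of these 11 had a negative and 4 a positive log2 fold change, with a median of -0.10 and a range of -0.38 to 0.34. None had an unadjusted p under 0.05. Ptk7, a Wnt co-receptor, had 5.93, 4.82 and 4.81 RPKM in siNC libraries 1 to 3 and 4.23, 3.95 and 4.45 RPKM in siQk libraries 1 to 3. It was the list's only gene whose groups did not overlap (log2 fold change -0.33, SE 0.11, unadjusted p 0.11, adjusted p 1, edgeR; exact permutation p 0.1, the smallest possible). Prickle1, a core polarity protein, stood at -0.38 (SE 0.22) and Ankrd6, the relative of fly diego, at -0.32 (SE 0.30).

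**Figure D5:**
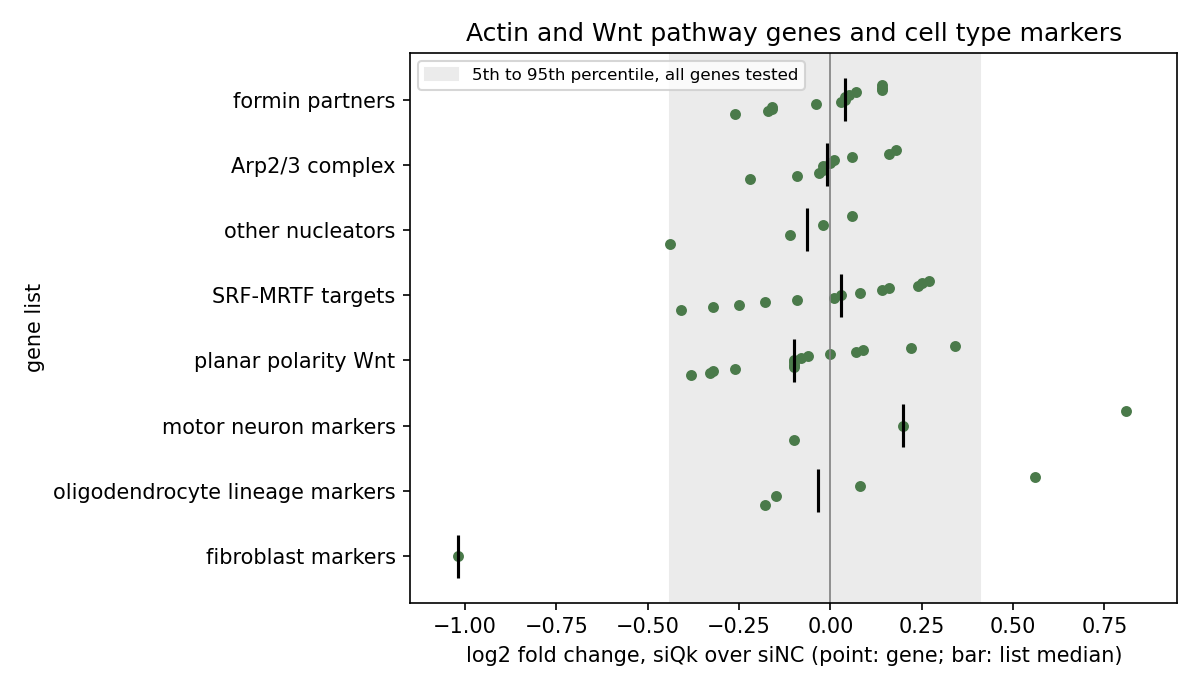
Log2 fold change of siQk over siNC (x axis) of each tested gene in 8 of the lists (y axis), where bars are list medians and the grey band runs from the 5th to the 95th percentile of all genes tested (-0.44 to 0.41). The actin and Wnt lists stay inside the band, while Isl1 (0.81), Cnp (0.56) and Pdgfrb (-1.02) of the marker lists lie outside it.

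Because Daam2 is also expressed by glia, markers of other cell types were read beside it. Of 9 oligodendrocyte lineage markers 4 were tested, and the summed level of the 9 was 8.65 to 10.2 RPKM in siNC and 8.36 to 12 RPKM in siQk. The lineage-defining Olig1, Olig2 and Sox10 were at 0 to 0.0318 RPKM in every library. Pdgfra, of the same list, was at 2.99, 5.54 and 5.25 RPKM in siNC libraries 1 to 3. In siQk libraries 1 to 3 it was at 5.5, 4.04 and 5.41 RPKM (log2 fold change 0.08, SE 0.33). Cnp, a myelin enzyme gene, had a log2 fold change of 0.56 (SE 0.36, unadjusted p 0.114, edgeR), Cspg4 one of -0.18 (SE 0.43) and Mbp, a myelin protein gene, one of -0.15 (SE 0.29). None of 4 astrocyte markers was tested, and their summed level was 0.0801 to 0.217 RPKM.

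Of 4 fibroblast markers 1 was tested, the growth factor receptor gene Pdgfrb, at 3.65, 3.11 and 5.27 RPKM in siNC libraries 1 to 3 and 2.83, 0.839 and 2.46 RPKM in siQk libraries 1 to 3 (log2 fold change -1.02, SE 0.61, unadjusted p 0.0331, adjusted p 1, edgeR). Without siQk library 2 it was -0.64, and without siNC library 3 as well -0.35. The other 3, the collagen genes Col1a1 and Col1a2 and the matrix gene Dcn, were at or below 0.121, 0.00787 and 0.113 RPKM. Of 7 motor neuron markers 3 were tested. Isl1 had 4.83, 4.75 and 4.8 RPKM in siNC libraries 1 to 3 and 9.63, 7.8 and 8.33 RPKM in siQk libraries 1 to 3 (log2 fold change 0.81, SE 0.10, unadjusted p 0.00108, adjusted p 1, edgeR; DESeq2 adjusted p 0.0328). Isl2 (0.20, SE 0.30) and Slc18a3, the vesicular acetylcholine transporter (-0.10, SE 0.21), overlapped between groups. The other 4 were not tested. Mnx1 and Slc5a7 were at 0.0944 RPKM or below. Lhx3, a motor neuron transcription factor gene, was at 0.0758 to 0.283 RPKM in siNC and 0.264 to 0.516 RPKM in siQk. Chat, the gene of the acetylcholine-making enzyme, was at 0.0297 to 0.0777 RPKM in siNC and 0.0997 to 0.141 RPKM in siQk, higher in every siQk library than in every siNC library at these low levels. Whether Pdgfrb, Isl1 or Chat had a part in the Daam2 difference was not tested.

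The genes whose pattern over the 6 libraries was most like that of Daam2 were found by the root mean square difference of log2 CPM, each gene centred on its own mean, over the 12665 genes tested. They were Kirrel, a nephrin-like adhesion gene (0.272), L3hypdh, listed as 2810055F11Rik and encoding a hydroxyproline dehydratase (0.309), the transglutaminase gene Tgm4 (0.316), Cdon, a co-receptor for hedgehog (0.320), and 1810010H24Rik (0.321). The median over all genes was 0.803. The list depends on single libraries: without siNC library 3, 0 of these 5 stayed among the nearest 5. As these 5 were picked for resembling Daam2, their lower level in siQk follows from the choice. Cdon was at 5.22, 5.15 and 5.12 RPKM in siNC and 2.7, 2.54 and 3.22 RPKM in siQk. L3hypdh was at 4.79, 2.76 and 3.9 RPKM and then 1.19, 1.23 and 1.01 RPKM. Among formins the nearest to Daam2 were Fhod1 (0.623, rank 733) and Fmnl1 (0.629, rank 807), and Daam1 ranked 2882 (0.720).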

How the data were processed

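Poly-A RNA libraries (TruSeq RNA v2, unstranded) of siNC and siQk cells, 3 each, were sequenced as paired reads, aligned with OLego and counted with Quantas by the authors; the labels name the build mm10. The deposited tables give each gene an expected count, an exon length and an RPKM value, which the authors scaled by exon length and column total only. Groups came from the treatment labels. Expected counts were rounded, scaled by TMM, and genes with mean log2 CPM above 0 were fitted with edgeR 4.0.16 (quasi-likelihood F test, R 4.3.3), calling p under 0.01 with Benjamini-Hochberg adjusted p under 0.1. The SE is that of the difference of group means of TMM log2 CPM (prior count 2). DESeq2 1.42.0, the edgeR exact test, other scalings and filters, a replicate block and fits without single libraries were alternatives. The fit was also run on simulated counts with known changes, and the outcome is not reported here. Coordinates and transcripts came from GENCODE M21. The formins, the lists and the tests were chosen with earlier results of these data known. Named were all formins, Qk, at most 3 tested genes of each list with the smallest p, 8 fixed partners (Pfn1, Pfn2, Rhoa, Rac1, Cdc42, Dvl1, Dvl2, Dvl3) and the 5 genes most like Daam2. Other marker genes (Olig1, Olig2, Sox10, Pdgfra, Mnx1, Lhx3, Chat, Slc5a7, Col1a1, Col1a2, Dcn) are given as cell type checks. Depth was 43000503 to 53565950 expected counts a library. Protein sequences were not analysed here, and some list results are not reported here.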

Additional observations from a re-analysis of the deposited data

How the results depend on the processing

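The Daam2 log2 fold change of -1.44 stayed negative under all 15 alternatives, from -1.64 to -1.24, and 0 of the other formins was called under any of them. That count is no sign of stability, since most of these fits called 1 gene over all genes, and the fit without siNC library 1 called 0, not even Qk (538 genes had an unadjusted p under 0.05 in edgeR). The count of list genes called was 0 in all of these but DESeq2, which called 1 (of 19 over all genes). List medians of the log2 fold change also moved with single libraries left out. They ran from -0.13 to 0.22 for the serum response factor list, -0.06 to 0.08 for formin partners and -0.23 to -0.02 for planar polarity. Leaving out single libraries moved the log2 fold changes of formins that had passed no test: Daam1 from -0.25 to 0.04, Fmnl3 from -0.05 to 0.26, Inf2 from -0.54 to 0.13 and Grid2ip from -0.40 to 0.05. Fmn1 ran from 0.01 to 0.33 and Diaph3 from 0.03 to 0.34. Without siNC library 3 and siQk library 2 together, an alternative added after seeing the data, Daam1 was at 0.08, Fmn1 at -0.09 and Fmnl3 at -0.12. The cause was not tested. Of the 13 neighbouring pairs in the siNC order, 5 did not overlap, and 5 to 8 with single siNC libraries left out, where 2 values overlap less readily than 3. Of the 5 genes most like Daam2, edgeR's filterByExpr, which admitted 14119 genes in place of 12665, kept 1 and single-library removal 0 to 5, with 0 without siNC library 3, so this list depends on single libraries.

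Replicate numbers are shared between groups, but same-numbered libraries did not deviate together (correlations of deviations from the group means 0.21, 0.02 and -0.17), so the number was not taken as a pairing. A replicate block left 1 gene called over all genes, 0 of the formins other than Daam2, and Daam2 at -1.44. Depth limits Fmn2, Fmnl2, Fhod3 and Diaph2, which had at most 9 counts in a library.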
